A study of Mus musculus with 8 samples.

Results

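The genes described are those whose symbol is Zfp9 followed by exactly 2 more digits. The rule found 53 of the 24155 genes in the count table, and the 53 lie on 12 chromosomes. Of these, 52 are annotated as protein-coding and Zfp939 as a transcribed unprocessed pseudogene. RNA was measured by polyadenylated RNA sequencing in mouse oligodendrocyte progenitors, the glial precursors that give rise to myelinating cells. They were immunopanned from pups at postnatal day 7, males and females, that carried floxed Ehmt1 and floxed Ehmt2 (Ehmt1fl/fl;Ehmt2fl/fl), and cultured with bFGF, at 20 ng/mL, and PDGF-AA, at 10 ng/mL, as mitogens. All 8 cultures had these alleles, and each was exposed for 6 hours to an adenovirus (multiplicity of infection 10) and collected at 72 hours after infection. In the 4 control cultures the virus was Ad-RFP, which encodes a red fluorescent protein, and in the 4 cKO cultures it was Ad-RFP-iCre, which also encodes Cre recombinase. Each of the batches 1, 3, 4 and 6 holds 1 control and 1 cKO library. The model is an acute loss in a dish, Cre acts only in cells the virus reached, and the labels do not give the animals behind each batch. The p-values therefore measure the spread of the cKO to control difference between batches, which may be partly technical.

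Mouse genes named Zfp encode zinc finger proteins, and many of them belong to the large KRAB type, in which a string of fingers binds DNA and a KRAB box recruits the corepressor Trim28 (also called KAP1). Through Trim28 and the histone methyltransferase Setdb1, such proteins place repressive methylation on lysine 9 of histone H3, often at transposable elements. The family grew by tandem duplication, so many of its genes stand in clusters of close copies, and the clusters themselves can carry the same histone mark. Ehmt1 and Ehmt2 encode partner enzymes that methylate that lysine.

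Libraries held 43542742 to 65374488 estimated counts. Levels are CPM, counts scaled by the size of each library over the genes tested, times its TMM scaling factor. These factors were 0.9948, 1.011, 0.9648 and 0.9646 in control batches 1, 3, 4 and 6 and 1.044, 1.029, 1.004 and 0.991 in the cKO libraries. A change is the log2 ratio of cKO to control with its SE, fitted by the quasi-likelihood method of edgeR with the batch as a block. "Rose" and "fell" mean a Benjamini-Hochberg adjusted p under 0.05 over all 18102 genes tested. Both targeted genes fell. Ehmt1 read 88.8, 100.2, 93.1 and 100 CPM in control batches 1, 3, 4 and 6 and 36.1, 41.9, 42.4 and 45.7 CPM in the matching cKO libraries (-1.20 ± 0.04, edgeR adjusted p = 7.41e-08). Ehmt2 went from 154.4, 178.4, 195.8 and 181.2 CPM to 51.7, 55.5, 64.5 and 62.0 CPM (-1.60 ± 0.03, adjusted p = 2.16e-09). No cKO library overlapped a control library for either gene. Whole genes were counted, so exons outside the floxed parts still contribute. The progenitor markers Pdgfra, Cspg4, Olig1, Olig2 and Sox10 summed to 3420 to 6160 CPM in control and 3350 to 5240 CPM in cKO libraries. That sum was higher in cKO in 0 of 4 batches, and Pdgfra, the receptor for PDGF-AA, fell from a mean of 969 to 773 CPM (-0.31 ± 0.03, adjusted p = 0.000227), while the other 4 did not pass.

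Few of the zinc finger genes passed the threshold. Of the 53, 50 passed the filter on low counts and were tested, and 3 rose, 0 fell and 47 did neither. That is 6% of the 50, where 20.5% of all genes tested passed, 10% as higher and 10.4% as lower. The 31 genes at 1 to 10 CPM in control included 2 that rose, against 11.2% higher and 4.71% lower (16% in all) among all genes at that level. The 12 genes at 10 to 100 CPM included 1 that rose, against 10.4% higher and 14.1% lower (24.6% in all) at that level. Of the 7 under 1 CPM, 0 passed, against 8.95% higher and 0.675% lower (9.63% in all). At an unadjusted p under 0.05 there were 7 higher and 3 lower members (16.3% and 18% of all genes). A call needs precision as well as change, and the median SE was 0.09 for the members against 0.07 for all genes. The 95% interval of the fold change lay within 1.5-fold in either direction for 38 of the 50, or 76%, against 71.4% of all genes. It lay within 2-fold for 45, or 90%, against 87.3% of all genes. At a bound narrower than 1.5-fold the order was reversed, with 22 members, or 44%, against 53.5% of all genes. The members were therefore not bounded more tightly than other genes at every width. Without the batch block, 0 members and 3 of all genes passed (0.0166%). In that fit 2 of the 50 members lay under an unadjusted p of 0.05, against 893 of all 18102 genes.

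**Figure D1:**
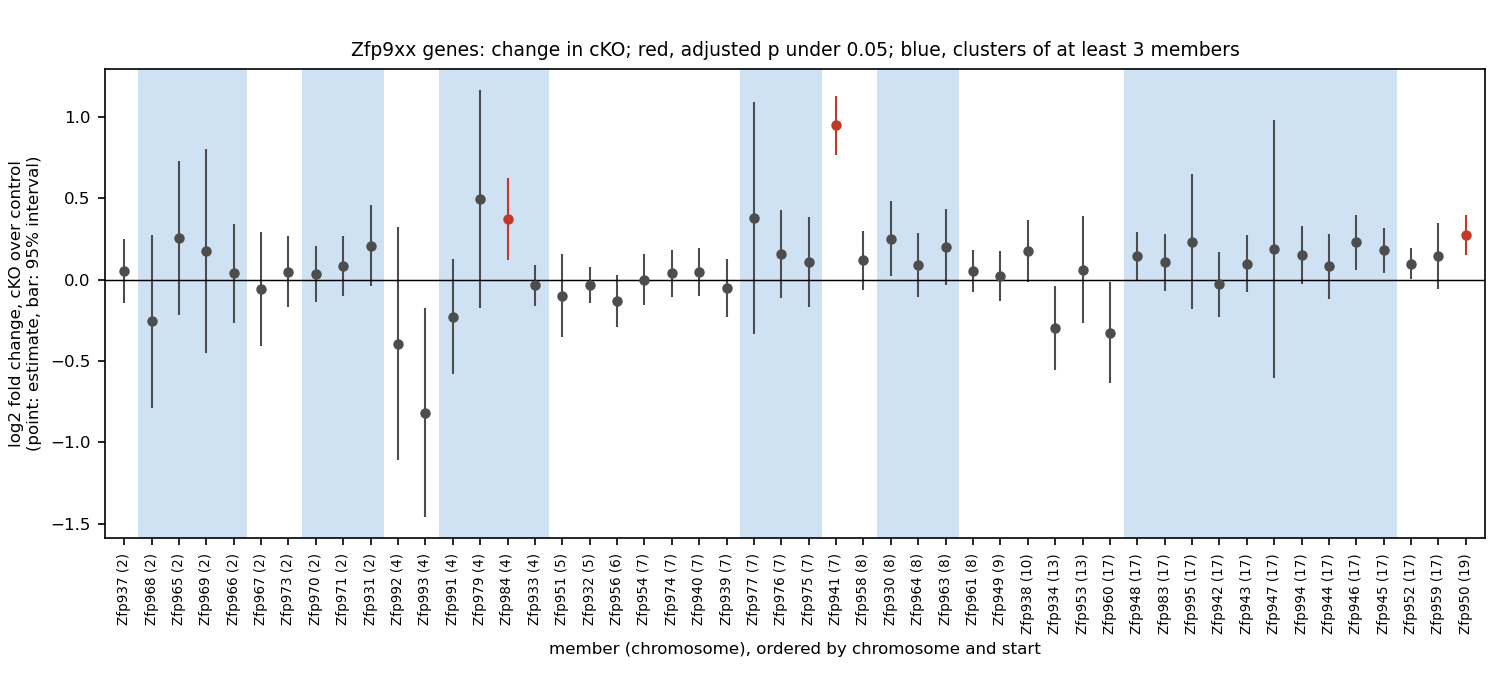
Log2 fold change of cKO over control (vertical axis) for the 50 tested genes, ordered by chromosome (in brackets) and start, with points for edgeR estimates, bars for 95% intervals, red for an adjusted p under 0.05 and blue for clusters of at least 3 genes. Zfp941 at 0.95 stands above the rest, most other points lie near 0, and the 7 genes under 1 CPM have wide bars.

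Zfp941 showed the largest rise of the members. This gene lies on chromosome 7 (140807449 to 140822178, mm10, minus strand). It read 3.72, 6.17, 8.42 and 7.53 CPM in control batches 1, 3, 4 and 6 and 6.85, 13.1, 17.8 and 12.4 CPM in the cKO libraries. Every batch rose, while cKO batch 1 still lay within the control range. The means were 6.46 ± 2.05 and 12.5 ± 4.48 CPM (SD, n = 4), and the change was 0.95 ± 0.08 with an edgeR adjusted p of 6.45e-05. The other genes around it did not share its rise. Of 6 other tested genes within 100 kb, Ric8a, a chaperone of G protein subunits, fell by 0.14 and the other 5 did not pass, among them the mitochondrial deacetylase gene Sirt3 (-0.17 ± 0.08) and Bet1l (-0.01 ± 0.06), which acts in vesicle transport. An exon of Zfp941 overlaps the gene model Gm45785 on the same strand, whose mean was 0.0814 CPM in control and 0.136 CPM in cKO.

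The other members that rose did so by less. Zfp950 (chromosome 19, 61053840 to 61140840, minus strand) read 13.6, 13.6, 18.0 and 19.3 CPM in control and 14.9, 17.3, 21.4 and 24.6 CPM in cKO libraries of batches 1, 3, 4 and 6. Each batch was higher in cKO, yet the groups overlapped, since batches 4 and 6 were high in both. The change was 0.27 ± 0.06 (edgeR adjusted p = 0.00727). Grk5, a G protein-coupled receptor kinase gene that overlaps Zfp950 on the opposite strand, did not pass (0.08 ± 0.05). Of the 4 other tested genes within 100 kb, 0 rose and 1 fell: Csf2ra, a cytokine receptor subunit gene, by 0.74 on the log2 scale (adjusted p = 1.88e-05). The strand setting of the counting is not known here, so reads from the 2 strands may be mixed.

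Zfp984 (chromosome 4, 147753974 to 147809788, minus strand) read 3.25, 2.71, 2.63 and 2.18 CPM in control and 3.68, 3.28, 3.84 and 3.07 CPM in cKO libraries. It was higher in 4 of 4 batches, with only the control library of batch 1 above the lowest cKO library. Its change of 0.37 ± 0.11 was close to the threshold (edgeR adjusted p = 0.0421), and leaving out batch 1, 3, 4 or 6 gave adjusted p-values of 0.0613, 0.0865, 0.161 and 0.106. Of its transcript windows of 75 bases, 40.9% recur in a transcript of another gene, mostly Gm13212, so part of its count could be exchanged with such copies. Of the 8 other tested genes within 100 kb, 0 rose and 3 fell, Miip (-0.27 ± 0.07), Plod1 (-0.12 ± 0.04) and Mfn2 (-0.10 ± 0.03), which acts in mitochondrial fusion. The neighbouring member Zfp933 did not pass (-0.04 ± 0.06).

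**Figure D2:**
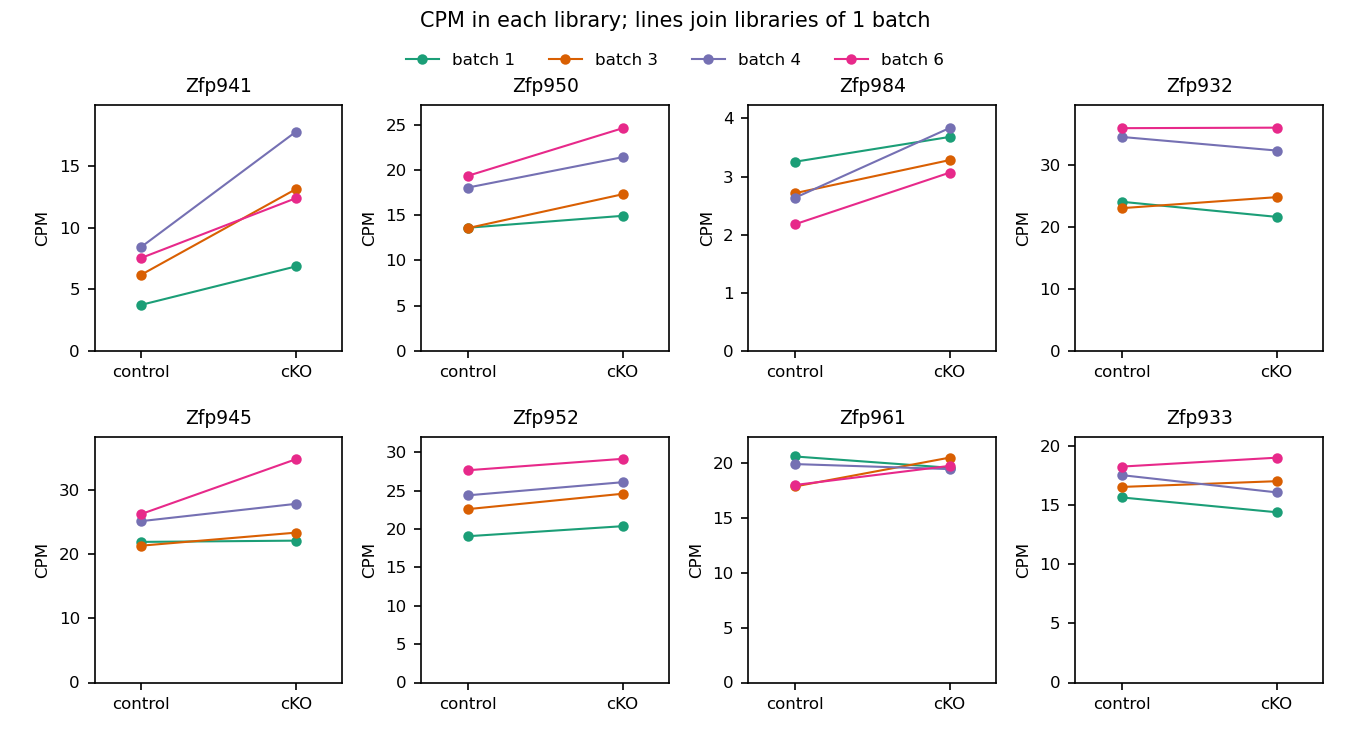
CPM in each library (vertical axis from 0) for the 3 genes that rose and the 5 most abundant that did not pass, with lines joining the control and cKO library of a batch. Zfp941 climbs in every batch, from 3.72 to 6.85 CPM in batch 1 and from 8.42 to 17.8 CPM in batch 4, while Zfp932 is higher in batches 4 and 6 than in batches 1 and 3 in both groups.

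Promoters of the 3 members that rose are printed so that they can be compared with those of the other members. The sequences are RefSeq windows of GRCm38.p6 that run from 250 bases before to 50 bases after the start of transcription, written 5′ to 3′ on the strand of the gene, with each CCAAT box (CCAAT or its reverse complement ATTGG) in capitals. CCAAT is the core that the factor NF-Y binds. The Zfp941 window is chr7:140822129-140822428, the Zfp950 window chr19:61140791-61141090 and the Zfp984 window chr4:147809739-147810038, all on the minus strand.
Zfp941: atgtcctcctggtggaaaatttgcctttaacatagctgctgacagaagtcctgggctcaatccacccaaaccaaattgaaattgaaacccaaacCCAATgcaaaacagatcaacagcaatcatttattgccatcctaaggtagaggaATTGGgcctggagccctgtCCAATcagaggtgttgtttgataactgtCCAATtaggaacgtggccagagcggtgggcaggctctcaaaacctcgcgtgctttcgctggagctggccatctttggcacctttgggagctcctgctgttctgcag
Zfp950: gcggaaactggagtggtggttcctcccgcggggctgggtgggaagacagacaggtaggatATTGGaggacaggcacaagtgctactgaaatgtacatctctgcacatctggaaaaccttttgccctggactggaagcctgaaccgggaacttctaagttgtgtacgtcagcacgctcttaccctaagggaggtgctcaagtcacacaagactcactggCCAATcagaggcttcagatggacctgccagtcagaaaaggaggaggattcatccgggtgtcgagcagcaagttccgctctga
Zfp984: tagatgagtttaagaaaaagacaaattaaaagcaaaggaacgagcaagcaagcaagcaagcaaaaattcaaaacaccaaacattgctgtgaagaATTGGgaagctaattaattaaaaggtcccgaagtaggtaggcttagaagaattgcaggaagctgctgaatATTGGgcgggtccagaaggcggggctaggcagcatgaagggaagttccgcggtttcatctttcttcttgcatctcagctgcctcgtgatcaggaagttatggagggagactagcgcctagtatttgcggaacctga

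Such boxes were found in most member windows, and members with and without one had similar medians. A window lying within 500 bases of the deposited gene start was found for 46 of the 53. At least 1 CCAAT box was present in 34 of them, or 73.9%, against 37.4% of all 32851 windows, with the motif searched on both strands. This comparison, like that of CG below, has limits. Each member gave 1 window, whereas the 32851 windows outnumber the 24155 genes in the count table. Close copies were counted separately, and 13 members lie in window pairs of at least 80% identity. The 32 tested members with a box had a median log2 fold change of 0.10 and included all 3 that rose. The 11 tested members without one had a median of 0.08. The number of CG dinucleotides in a window ran from 3 to 24 with a median of 8, against a median of 7 over all windows. The 18 tested members with fewer than 8 had a median change of 0.14, and the 25 with 8 or more had 0.09. These motifs were chosen after the sequences were seen, and a match is only a match of letters.

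The most abundant of the members that did not pass were picked for description with the calls known. Zfp950, which rose, was as abundant as the lowest of them, Zfp933: its mean CPM was lower in control and higher in cKO. Zfp932, on chromosome 5, was highest both in CPM and per length, at 9.0 ± 2.08 CPM per kb of exon in control (SD, n = 4). It read 24.1, 23.1, 34.6 and 36.0 CPM in control batches 1, 3, 4 and 6 and 21.7, 24.9, 32.4 and 36.1 CPM in cKO, a change of -0.04 ± 0.05. Batches 4 and 6 were high and batches 1 and 3 low in both groups. Zfp952 followed it per length at 5.37 ± 0.82 CPM per kb, then Zfp948 at 4.85 ± 1.84, Zfp958 at 4.55 ± 0.73 and Zfp961 at 4.40 ± 0.32 CPM per kb, and within these 4 each differed from the one below it by less than its own SD. The median over the 50 tested was 1.53 CPM per kb. Zfp945, on chromosome 17, read 21.9, 21.3, 25.1 and 26.2 CPM in control and 22.1, 23.3, 27.8 and 34.7 CPM in cKO libraries (0.18 ± 0.06, edgeR adjusted p = 0.0682), and without batch 6 its estimate was 0.10. Zfp952 (0.10 ± 0.04), Zfp961 (0.05 ± 0.06) and Zfp933 (-0.04 ± 0.06) also did not pass.

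Levels of these genes also varied between batches. The SD of the 4 batch means on the log2 scale had a median of 0.24 (0.25 over all genes tested), and it exceeded the size of the cKO change in 38 of 50 members, or 76%, against 74.6% of all genes. In 15 of 50 members all 4 libraries of batches 4 and 6 lay above all 4 of batches 1 and 3, against 16.9% of all genes tested. The reverse held for 1 member, against 17.2% of all genes. That member was Zfp948, at 15.3 and 18.4 CPM in control batches 1 and 3 and 10.1 and 7.59 CPM in control batches 4 and 6. This split by batch was chosen after earlier results of these data.

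In control and cKO alike the family's summed level followed the batch. The 53 genes summed to 332.8, 336.9, 382.6 and 397.3 CPM in control batches 1, 3, 4 and 6 and to 336.7, 372.8, 404.1 and 435.7 CPM in the cKO libraries. The cKO library was the higher in 4 of 4 batches, and the groups overlapped. In the same libraries the share of mitochondrial counts was also higher in cKO in 4 of 4 batches (2.42% to 3.24% in control and 3.0% to 3.63% in cKO), and that of the ribosomal RNA gene CT010467.1 was lower in 4 of 4 (7.91% to 10.1% in control and 6.61% to 9.13% in cKO). Their part in the sum was not tested. In bulk RNA, fewer cells of a type and less RNA per cell cannot be told apart.

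Most members in chromosome clusters had estimates above 0. A cluster was taken as at least 3 members whose starts follow each other by at most 500 kb, which gave 6 clusters with 29 members. Of the 27 tested cluster members, 23 had a fold change above 0 and 4 below, with a median of 0.15, but only Zfp984 passed. Outside clusters 13 of 23 were above 0, with a median of 0.04. This split depends on the gap chosen. A gap of 1000 kb gave 5 clusters with 33 members. It takes in Zfp992 (-0.39 ± 0.32) and Zfp993 (-0.82 ± 0.29), whose starts precede that of Zfp991 on chromosome 4. On chromosome 2 it takes in Zfp967 (-0.06 ± 0.16) and Zfp973 (0.05 ± 0.10). The signs were not counted again at that gap. Over all 50 members 72% were above 0 with a median of 0.09, against 48.3% and -0.01 over all genes tested, and 54.5% and 0.03 over genes at 1 to 10 CPM. No test of the list was made. The 33 other tested genes that lie inside the clusters included 5 that rose and 0 that fell (10% and 10.4% of all genes). These were Gm14288 (0.55 ± 0.09) and Gm14322 (0.48 ± 0.15) on chromosome 2, Gm10033 (0.29 ± 0.07) on chromosome 8, and Gm20008 (0.35 ± 0.07) and Gm7072 (0.35 ± 0.10) on chromosome 17, named after their values were seen.

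The largest cluster spans chromosome 17 from 21567008 to 22867134 and holds 10 members, from Zfp948 to Zfp945. Of these, 9 had a fold change above 0 and 0 passed. Their estimates were close together, from -0.03 to 0.23 with a median of 0.15. Their summed level was 83.1, 83.7, 85.1 and 88.9 CPM in control batches 1, 3, 4 and 6 and 84.6, 93.2, 94.5 and 103.3 CPM in cKO libraries. It was higher in cKO in 4 of 4 batches, and the cKO library of batch 1 lay within the control range. Zfp946 came nearest to the threshold, at 12.8, 11.6, 9.85 and 10.5 CPM in control and 12.5, 14.3, 12.6 and 13 CPM in cKO (0.23 ± 0.08, edgeR adjusted p = 0.0558). Zfp995 had the largest estimate, 0.23 ± 0.19, and its cKO values ran from 1.36 to 3.34 CPM. Without batch 6 the estimate of Zfp995 was 0.04, and without batch 3 it was 0.45. The 13 other tested genes in the interval had a median of 0.18.

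Within this cluster Zfp942 and Zfp943 stand head to head, with starts 88 bases apart on opposite strands. Zfp942 read 8.16, 6.71, 8.22 and 9.83 CPM in control and 7.36, 8.31, 7.41 and 9.10 CPM in cKO (-0.03 ± 0.09). Zfp943 read 6.78, 6.17, 8.17 and 9.03 CPM in control and 6.84, 7.17, 9.41 and 8.83 CPM in cKO (0.10 ± 0.08). Neither gene passed, and both ranges overlapped. Their windows overlap and hold the E-box CACGTG, the core that Myc and Max family factors bind. That motif reads the same on both strands. It was found in 7 of 46 member windows, or 15.2%, against 7.15% of all windows. This comparison has the same limits as that for CCAAT. Of the 7, 6 belong to this cluster of 10, or 5 when the overlapping window of Zfp943 is left out. The window of Zfp944 (chr17:22361351-22361650, minus strand, RefSeq) is shown as an example, with CACGTG in capitals. It shares 84.3% of aligned bases with that of Zfp942.
Zfp944: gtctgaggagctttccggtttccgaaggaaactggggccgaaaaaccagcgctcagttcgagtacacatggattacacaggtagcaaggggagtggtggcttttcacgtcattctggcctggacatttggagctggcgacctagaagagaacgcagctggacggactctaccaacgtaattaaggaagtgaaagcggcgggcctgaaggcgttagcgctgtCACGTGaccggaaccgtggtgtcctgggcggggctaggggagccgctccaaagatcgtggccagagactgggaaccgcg

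The 5 smaller clusters gave mixed values. On chromosome 8 (69209038 to 69749970) Zfp930, Zfp964 and Zfp963 had a median of 0.20, and their sum was higher in cKO in 4 of 4 batches, from 15.6, 15.7, 20.0 and 20.2 CPM to 18.1, 17.4, 21.4 and 23.9 CPM. Zfp930 read 8.67, 8.27, 8.09 and 6.10 CPM in control and 9.28, 8.67, 9.04 and 9.77 CPM in cKO. It was the only member whose groups did not overlap, 1 of 50 against 2.4% of all genes. That separation was nearly a tie, with control batch 1 at 8.6654 CPM and cKO batch 3 at 8.6663 CPM. Groups with all cKO libraries below control were found for 0 members, against 1.28% of all genes. Zfp930 did not pass (0.25 ± 0.10, edgeR adjusted p = 0.118), and without batch 6 its estimate was 0.11. On chromosome 7 (42579783 to 42692742) Zfp977, Zfp976 and Zfp975 had a median of 0.16. The largest estimate there was that of Zfp977, 0.38 ± 0.32, at a mean of 0.233 CPM in control, and it was 0.21 without batch 6.

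On chromosome 4 (147132038 to 147848366) the cluster from Zfp991 to Zfp933 ran from -0.23 to 0.49, and it holds Zfp984. Its largest estimate belonged to Zfp979, 0.49 ± 0.30, at 0.588, 0.217, 0.127 and 0.227 CPM in control and 0.617, 0.357, 0.277 and 0.307 CPM in cKO. It was higher in every batch but did not pass (edgeR adjusted p = 0.282). The clusters on chromosome 2, from Zfp968 to Zfp966 (175372436 to 175931100) and from Zfp970 to Zfp931 (177464733 to 178078476), had medians of 0.11 and 0.08. Zfp965 led the first at 0.26 ± 0.21 and Zfp931 the second at 0.21 ± 0.11, and neither passed. The estimate of Zfp965 ran from 0.09 without batch 3 to 0.45 without batch 1, and that of Zfp931 from 0.14 without batch 1 to 0.31 without batch 4.

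**Figure D3:**
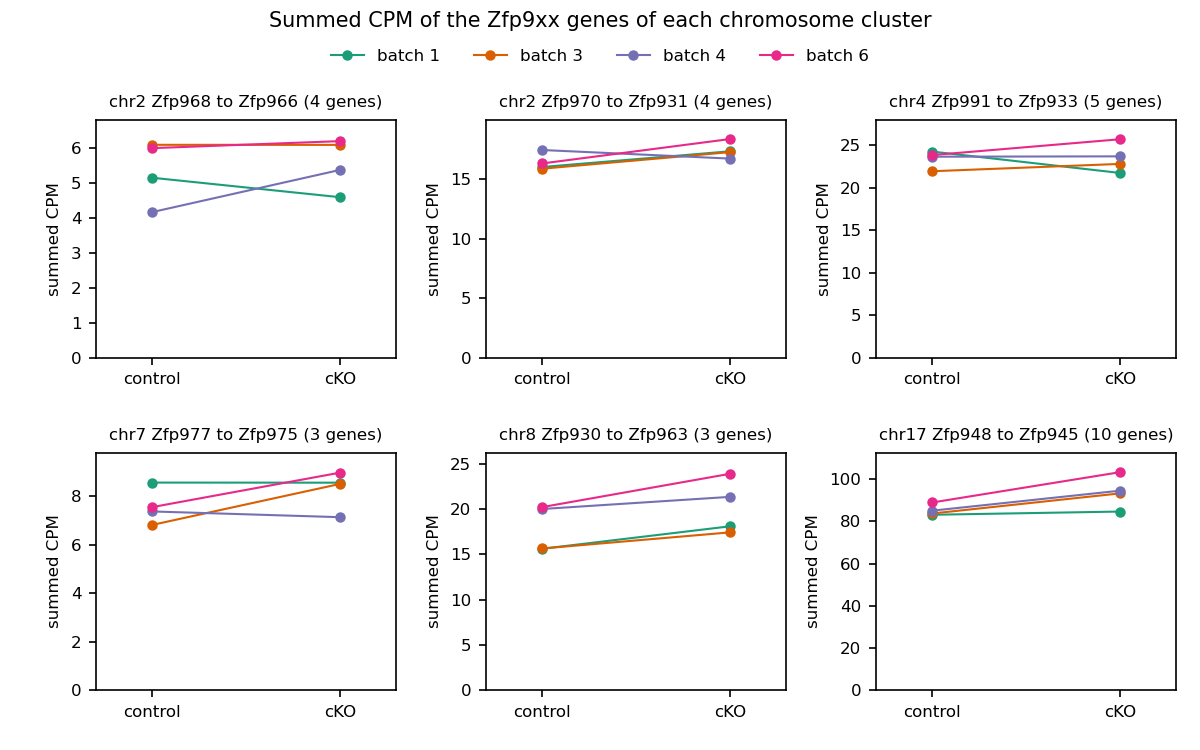
Summed CPM of the member genes of each cluster (vertical axis from 0) in control and cKO libraries, with lines joining the libraries of a batch. The sums of the chromosome 17 and chromosome 8 clusters were higher in cKO in all 4 batches, and the other clusters had lines in both directions.

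No member fell past the threshold. The largest decrease was that of Zfp993 on chromosome 4 (146610961 to 146658160, plus strand), named after its values were seen. It read 0.529, 0.488, 0.555 and 0.341 CPM in control and 0.264, 0.179, 0.356 and 0.274 CPM in cKO. Each batch was lower in cKO, and only cKO batch 4 lay within the control range. The change of -0.82 ± 0.29 had an edgeR adjusted p of 0.0711 and a 95% interval from -1.46 to -0.18. Of its 75-base windows, 78.7% recur in another gene, mostly in Zfp991, which did not pass (-0.23 ± 0.16). Lower in 4 of 4 batches were 4 members (21.3% of all genes), Zfp993, Zfp939, Zfp934 and Zfp960, and higher in 4 of 4 were 11 (19.5% of all genes). Zfp957, Zfp972 and Zfp982 were not tested, with control means of 0.0517, 0.0689 and 0.158 CPM and cKO means of 0.0532, 0.101 and 0.229 CPM.

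Shared sequence limits what can be said of single copies. Over 50% of the 75-base transcript windows recur in another gene for 9 members, and for Zfp967 and Zfp969 100% do. These 9 had a median SE of 0.16 and a median control level of 2.05 CPM, and 0 of them passed. The 25 tested members with under 5% of windows shared had a median SE of 0.08 and a median of 8.45 CPM, and 2 of them rose. Among all genes tested 20.5% passed, and 16% of those at 1 to 10 CPM. Across the 50 tested members the shared share correlated with the SE at r = 0.45, a description that level also enters. Some counts were shared out among genes before deposit: all 8 values were not whole numbers in 23 members and all 8 were whole, to within 0.01, in 12.

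**Figure D4:**
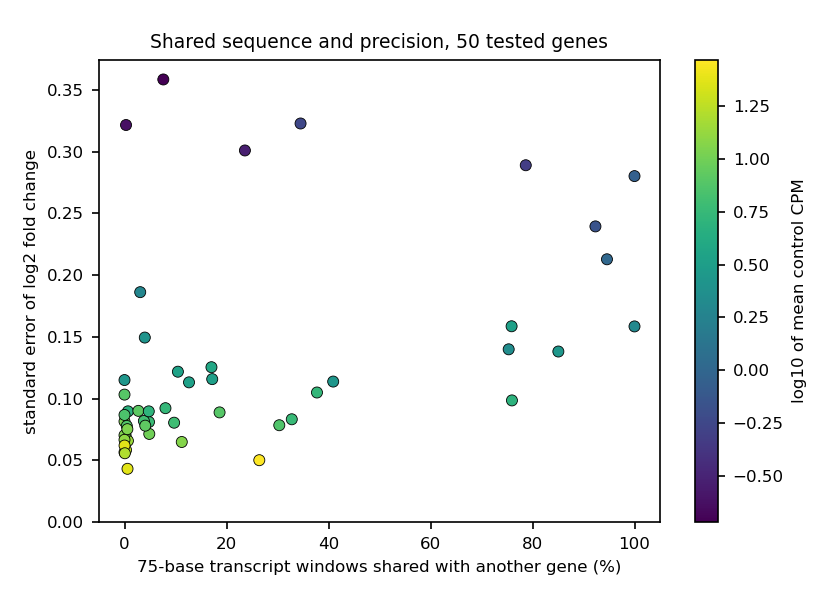
Percent of 75-base transcript windows shared with another gene (horizontal axis) against the standard error of the log2 fold change (vertical axis) for the 50 tested genes, coloured by log10 of mean control CPM. Genes with the most shared sequence have standard errors above most others, and low level (dark points) gives large errors at any share.

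The closest copies lie on chromosome 2. Of 1035 pairs of member windows, 20 had at least 80% identity, and the median pair had 50.4%. The windows of Zfp966 (chr2:175931051-175931350, minus strand) and Zfp967 (chr2:176520754-176521053, plus strand) were identical over all 300 bases. That sequence is given once, from RefSeq, with CCAAT or ATTGG in capitals, because the 2 genes cannot be told apart by it.
Zfp966: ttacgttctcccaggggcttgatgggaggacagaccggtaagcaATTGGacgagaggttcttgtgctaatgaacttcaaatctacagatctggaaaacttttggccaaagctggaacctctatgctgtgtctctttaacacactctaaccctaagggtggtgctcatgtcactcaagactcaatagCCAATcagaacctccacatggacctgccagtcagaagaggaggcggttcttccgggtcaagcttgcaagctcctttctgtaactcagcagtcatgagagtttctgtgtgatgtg

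Levels of both genes overlapped between the groups. Zfp966 read 2.57, 3.04, 1.87 and 3.45 CPM in control and 2.33, 3.06, 2.67 and 3.02 CPM in cKO (0.04 ± 0.14). Zfp967 read 1.80, 2.39, 2.27 and 1.74 CPM in control and 2.08, 2.35, 1.52 and 1.94 CPM in cKO (-0.06 ± 0.16). Neither passed. Summing the 6 close copies Zfp965, Zfp966, Zfp967, Zfp968, Zfp969 and Zfp973, which takes away any exchange among them, gave 12.3, 13.8, 9.98 and 13 CPM in control batches 1, 3, 4 and 6 and 12.1, 13.2, 11.3 and 13.6 CPM in cKO. The sum was higher in cKO in batches 4 and 6 and lower in batches 1 and 3.

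Of 292 tested genes named Zfp with a number outside this range, 25 rose and 45 fell, together 24%, with a median log2 fold change of -0.02, where 20.5% of all genes passed, 10% as higher and 10.4% as lower. Without batch 3 the counts were 9 and 26, without batch 4 they were 11 and 25, and without batch 1 they were 21 and 29. Calls over all genes also dropped in these fits, to 11.6%, 11.6% and 13.1%. The difference from the 6% of the members was not tested.

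The machinery through which KRAB proteins act moved by little. Of 27 genes of Trim28 corepression and of lysine 9 and DNA methylation, 0 rose, 8 fell and 19 did neither (10% and 10.4% of all genes). Among all genes over 100 CPM 8.37% rose and 24.7% fell, and among those at 10 to 100 CPM 10.4% rose and 14.1% fell. The list spans both levels, with control means from 2.975 CPM for Dnmt3b to 813.8 CPM for Cbx5. Trim28, the corepressor that KRAB boxes bind, went from 351 ± 57.8 to 317 ± 45.4 CPM (SD, n = 4; -0.14 ± 0.03, edgeR adjusted p = 0.00616). Setdb1, the methyltransferase it recruits, fell by 0.14 on the log2 scale, and Atf7ip, a partner of Setdb1, fell by 0.28. Cbx5 (HP1 alpha), which binds the methylated lysine, fell by 0.14. The lysine 9 methyltransferase gene Suv39h1 fell by 0.14 and Morc2a, which acts with the silencing complex HUSH but is not a core part of it, by 0.21. The remodeller gene Chd3 fell by 0.36 and Wiz, a zinc finger partner of Ehmt1 and Ehmt2, by 0.14. All 8 were lower in 4 of 4 batches. Without batch 4, 2 genes of the list passed as lower, and calls over all genes in either direction dropped from 20.5% to 11.6%.

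Markers of other cells moved in the same libraries. The summed level of 5 astrocyte markers was 139 to 725 CPM in control and 246 to 832 CPM in cKO, and Aqp4 and Gfap rose. Slc1a2, the most abundant of these, did not pass (0.38 ± 0.16), though it was higher in 4 of 4 batches. Aldh1l1 did not pass either (0.05 ± 0.09) and was lower in 3 of 4 batches, and Gjb6 was too low to be tested. The summed level of 5 neuron markers was 26 to 66 CPM in control and 46.4 to 73.4 CPM in cKO, and Snap25, Stmn2 and Syt1 rose. Tubb3, the most abundant of them, did not pass (27.3 CPM in control and 25.7 CPM in cKO), nor did Rbfox3 (-0.40 ± 0.17), which was lower in 4 of 4 batches. The astrocyte and neuron sums were both higher in cKO in 4 of 4 batches. The 3 endothelial markers in the table summed to at most 10.9 CPM, with 0 called. The 2 microglia markers summed to at most 1.44 CPM and P2ry12 rose, and the 4 fibroblast and pericyte markers summed to at most 1.47 CPM. Of these Col1a2 rose, while Col1a1 (-0.69 ± 0.31, lower in 4 of 4 batches) and Pdgfrb (-0.31 ± 0.41) did not pass. The part of such cells in the values of the zinc finger genes was not tested.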

How the data were processed

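Libraries were made from oligo-dT captured mRNA, per the labels' protocols. The submitters' processing notes name STAR, cutadapt, Partek, DESeq2 and the build mm10. Versions, annotation and strand setting: not given in the sources used here. Per gene, the authors deposited estimated counts without normalization, and read division among copies can move them between genes. Counts were rounded. Genes passing edgeR's filterByExpr (minimum count 10) were scaled by TMM and tested with glmQLFit (robust) and glmQLFTest in edgeR 4.0.16 (R 4.3.3), 2-sided, with the batch as a block, and the scripts were tested on simulated data. The batch numbers in the labels pair the libraries. Libraries of 1 batch deviated together from their group means (r of 0.75 to 0.79, and at most 0.39 between batches). The members, gene lists and naming rule were chosen with earlier results of these data known. Named were Ehmt1, Ehmt2, members past the threshold, the 5 most abundant others, the largest change in each cluster and machinery genes past the threshold. Exon lengths and transcript windows came from GENCODE M21 (52 of 53 members with identical coordinates). Ends are last bases. Alternatives were other scaling, filters, tests (DESeq2 1.42.0, limma 3.58.1), no block, and each batch left out.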

Additional observations from a re-analysis of the deposited data

Results flagged for a closer look

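Within a group of 4 libraries, 1 library stood apart from the other three in 6 of 106 groups checked, where chance gives about 1 in 20 groups. Control batch 4 was low for Zfp973 (3.55 CPM, the others from 5.28 to 5.37) and for Zfp960 (1.76 CPM, the others from 2.33 to 2.37), and high for Zfp951 (3.17 CPM, the others from 2.48 to 2.58). Control batch 1 was high for Zfp958, at 13.3 CPM against 9.60 to 10.1. In cKO libraries, batch 1 was high for Zfp970 (7.86 CPM, the others from 7.28 to 7.36) and batch 6 for Zfp931 (4.94 CPM, the others from 3.48 to 3.59). None of these 6 genes passed the threshold.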

How the results depend on the processing

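Zfp941 and Zfp950 stayed past the threshold under every alternative with the replicate block, at 0.90 to 1.03 and 0.24 to 0.31. Zfp984 did not pass in DESeq2 (adjusted p = 0.102). Without the replicate block, 0 members, 0 other numbered Zfp genes in either direction and 0 machinery genes passed. Members called higher numbered 5 with no filter, where Zfp945 and Zfp946 were added, and 2 to 3 with a batch left out. Other numbered Zfp genes with a batch left out numbered 9 to 21 higher and 25 to 35 lower. Machinery genes called lower then numbered 2 to 7. Over all genes, 11.6% to 19% passed with a batch left out and 15.5% with no filter, against 20.5% with all batches and the filter. With upper-quartile factors, no filter, the 1 CPM filter, DESeq2 or limma-voom, 1 machinery gene was called higher. The sign of 2 estimates near 0 turned with a batch left out: Zfp932 ran from -0.076 to 0.0026 (without batch 1) and Zfp933 from -0.069 to 0.0059 (without batch 4). A gap of 200 kb left 17 members in clusters, and a gap of 1000 kb put 33 there. The median change of members ran from 0.06 to 0.11 over all these alternatives. Below 1 CPM, counts limit precision.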
